A study of Caenorhabditis elegans with 2 samples.

Results

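Nuclear hormone receptors are transcription factors that bind DNA through a pair of zinc fingers and, in most members, bind a small lipophilic molecule through a separate domain. Caenorhabditis elegans has an unusually large set of them. A small part has clear relatives in flies and mammals, and the rest descends largely from an HNF4-like ancestor and lies to a great extent in clusters on chromosome V. Known members time moulting and larval development, set neuron identity, read the X chromosome dose and control fat metabolism. The genes described here are all protein-coding genes of the Ensembl WBcel235 annotation with a symbol that starts with nhr-, together with daf-12, unc-55, fax-1, sex-1 and odr-7. They number 274 of 19973 protein-coding genes on the nuclear chromosomes, 269 of them named nhr- and 5 named otherwise, and the other 19699 genes give the background.

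The study mapped by ChIP-seq the sites of TBX-8, a T-box transcription factor of embryonic morphogenesis. Embryos of strain RW10470 carry the transgene tbx-8::TY1::EGFP::3xFLAG with unc-119(+) in an unc-119(ed3) background, and an anti-GFP antibody was used to pull down chromatin. The 2 biological replicates were whole embryos of pooled sex, obtained by egg bleaching and labelled both as mixed stage and as 2.5 hours old, so all embryonic cell types are mixed. They form 1 group, both come from the same strain, and no second condition exists. The labels do not give the promoter or copy number of the transgene.

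The lists of regions hold background on purpose. They numbered 24167 regions for replicate 1, 20865 for replicate 2 and 16355 for the pooled reads of both, with 521 left in the authors' thresholded list. Each gene was scored by the highest region of a list whose summit, the deposited position of highest signal, lay within 2 kb of any of its transcript starts. Signal is the authors' own value per region. It has no unit that carries over between lists, so values are compared within a list only, and across lists only as ranks. Pooled signals ran from 27.5 to 571 with a median of 34.6, and a deposited q-value below 0.05 began at a signal of 62.9. The tagged gene tbx-8 and its relative tbx-9 had no region within 2 kb in any list. The transformation marker unc-119 had a pooled signal of 41.7, and its endogenous and transgenic copies cannot be told apart.

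Sequences at the summits of the highest-scoring receptor genes are shown first, because they show what kind of DNA lay under the strongest signals. They are the 6 highest other than nhr-64 on I, which ranked between nhr-41 and nhr-48, is not printed and held neither a tRNA gene nor a marked word. Each runs from 100 bp before to 100 bp after the summit of the gene's highest pooled region, on the plus strand of WBcel235 (ce11), from the RefSeq copy of that assembly. In the first pair, capitals mark the part that lies inside a tRNA gene. In the other 4, capitals mark the words GAGAGA or GGTGTG on either strand, the second being the core of a T-box site. Neither word was present in the first pair.

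nhr-255 (chrX:15741964-15742164): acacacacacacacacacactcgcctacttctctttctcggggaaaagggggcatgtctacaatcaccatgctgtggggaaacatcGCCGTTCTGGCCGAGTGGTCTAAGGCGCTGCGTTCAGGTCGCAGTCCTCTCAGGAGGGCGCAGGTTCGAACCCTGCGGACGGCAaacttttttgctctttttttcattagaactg
nhr-41 (chrIV:1388209-1388409): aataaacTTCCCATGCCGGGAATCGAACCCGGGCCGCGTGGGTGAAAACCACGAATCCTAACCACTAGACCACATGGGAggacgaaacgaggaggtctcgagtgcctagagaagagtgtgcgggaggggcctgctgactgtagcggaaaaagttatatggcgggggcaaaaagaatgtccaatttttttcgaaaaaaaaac
nhr-1 (chrX:17513638-17513838): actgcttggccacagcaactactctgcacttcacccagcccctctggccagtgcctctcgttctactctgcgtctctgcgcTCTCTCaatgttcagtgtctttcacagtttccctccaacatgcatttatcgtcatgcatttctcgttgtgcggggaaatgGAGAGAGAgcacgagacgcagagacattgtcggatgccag
nhr-47 (chrV:5505137-5505337): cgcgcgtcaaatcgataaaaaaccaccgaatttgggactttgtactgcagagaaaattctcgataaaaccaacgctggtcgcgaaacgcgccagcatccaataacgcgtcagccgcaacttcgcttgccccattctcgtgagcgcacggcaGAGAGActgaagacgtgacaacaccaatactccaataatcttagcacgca
sex-1 (chrX:10204337-10204537): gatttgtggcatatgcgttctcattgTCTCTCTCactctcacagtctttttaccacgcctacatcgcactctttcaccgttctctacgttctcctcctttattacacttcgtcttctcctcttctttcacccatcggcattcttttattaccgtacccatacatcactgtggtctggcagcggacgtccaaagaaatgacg
nhr-48 (chrX:15707462-15707662): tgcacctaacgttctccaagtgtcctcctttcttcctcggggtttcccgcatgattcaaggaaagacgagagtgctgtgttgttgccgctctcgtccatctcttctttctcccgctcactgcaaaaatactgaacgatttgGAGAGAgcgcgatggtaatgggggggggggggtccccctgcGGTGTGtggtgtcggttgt

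The nhr-255 window held a whole tRNA gene of 84 bp (WBGene00014626), with the summit inside it. The nhr-41 window held a tRNA gene of 72 bp (WBGene00023202) beside the summit, in an intron of nhr-41. The words were not at the summits themselves. In the nhr-48 window the T-box core began 82 bp to the right of the summit, and the nearest GAGA word of nhr-1 began 19 bp to the left of it.

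Few receptor genes carried strong signal. A pooled region lay within 2 kb of 105 of the 274 genes (38.3%, exact 95% interval 32.5% to 44.4%), against 47.6% of the other protein-coding genes. In replicate 1 the count was 143 (52.2%, against 61.3%) and in replicate 2 it was 136 (49.6%, against 57.3%). Both replicate lists had a region near 80 genes (29.2%, against 42.9%), and 74 genes had none in any of the 3 lists. Neither replicate list had a region near 75 of the 274 genes, beside 4783 of 19699 other genes, which is a similar share. A region of the thresholded list lay near 3 genes (1.09%, against 3.07%), and a pooled region with a q-value below 0.05 lay near 6 (2.19%, against 4.88%). The share of receptor genes was thus below this unweighted background in every list. Much of the family lies on V, where the background was lowest. Other genes weighted to the chromosomes of the receptors gave 41% in the pooled list. The weighted values were 55.8% in replicate 1 and 51.6% in replicate 2. Each lay inside the interval of the receptor genes, which was 46.1% to 58.2% in replicate 1 and 43.6% to 55.7% in replicate 2. Intervals cover counting error only, and genes that share a region are not independent.

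Where a region was present, its signal was also modest. The median pooled score of the 105 genes was 34.3, with quartiles of 31.2 and 40.3 and a range from 27.6 to 123, beside a median of 37.4 for other genes with a region. The ratio of these medians was 0.917 in the pooled list, 0.988 in replicate 1 and 0.908 in replicate 2. Of the 105 genes, 39 scored above the median of all 9478 genes with a pooled region. Of the same 105 genes, 6 were among the 1000 highest-scoring of those 9478 genes.

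The strongest signal at a receptor gene was at nhr-255 on X (WBGene00014068). It was 123 in the pooled list (70 in replicate 1, 50.2 in replicate 2), with ranks among genes with a region of 197, 190 and 300. The region was high in both replicates, and its summit lay in the tRNA gene printed above, 546 bp upstream of the only annotated start. It was the only pooled region in the 2 kb window of the gene, and it ended at position 15742293, short of the start at 15742610.

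Next came nhr-1 on X (WBGene00003600), with 90.6 in the pooled list (59.4 in replicate 1, 27.1 in replicate 2). Replicate 1 placed it high, at rank 278 among genes, and replicate 2 at rank 1772. The summit was intergenic, 325 bp upstream of a start (region X, 17513508 to 17513967). The gene had 5 pooled regions in its windows, the highest number for any receptor gene, and the other signals were 47.6, 36.5, 33.2 and 30.1. Its 4 starts gave 9580 bp of sequence to search, beside a median of about 4000 bp for all receptor genes.

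The third was nhr-47 on V (WBGene00003637), with signals of 79.9 in the pooled list (47.8 in replicate 1, 36 in replicate 2). Its summit lay 16 bp upstream of the single start, inside an annotated noncoding gene or pseudogene (region V, 5505007 to 5505466). The ranks among genes were 539, 458 and 707 in the same order, so both replicates held it at a like height. These 3 genes were those with a region of the thresholded list, whose lowest signal was 75.8. Just below that limit came sex-1 (68.1), nhr-41 (68.1) and nhr-64 (67.1), which were the other 3 genes with a q-value below 0.05.

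sex-1 (WBGene00004786) encodes a receptor that takes part in counting X chromosomes in the early embryo. Its signals were 68.1 in the pooled list (38 in replicate 1, 29.6 in replicate 2; q = 0.0192). The summit lay in an intron, 984 bp downstream of the only start. nhr-41 on IV (WBGene00022423), a relative of the fly receptor DHR78, had 68.1 in the pooled list (41.8 in replicate 1, 29.8 in replicate 2; q = 0.0191), beside the intronic tRNA gene. nhr-64 on I (WBGene00003654), an HNF4-like receptor linked to lipid metabolism, had 67.1 in the pooled list (38.9 in replicate 1, 24.3 in replicate 2; q = 0.0224), with an intergenic summit 1430 bp upstream of a start. All 3 ranked higher among genes in replicate 1 than in replicate 2.

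Of the 12 highest-scoring receptor genes, the remaining 6 had pooled signals between 57.1 and 61.1 and q-values from 0.0665 to 0.121. nhr-48 on X and nhr-91 on X, both with clear relatives outside nematodes, had 61.1 and 58.6. nhr-6 on III, the relative of mammalian NR4A receptors that acts in the development of the spermatheca, had 58.3. nhr-15 on V had 57.6, but its summit lay 1055 bp from its own start and nearer to a start of phf-10. The neighbours nhr-201 and nhr-202 on V had 57.1 from a single region, 79 bp from a start of the first and 262 bp from a start of the second. By chromosome, 5 of the 12 were on X and 4 on V. The highest on II was nhr-119, with 38.3.

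**Figure D1:**
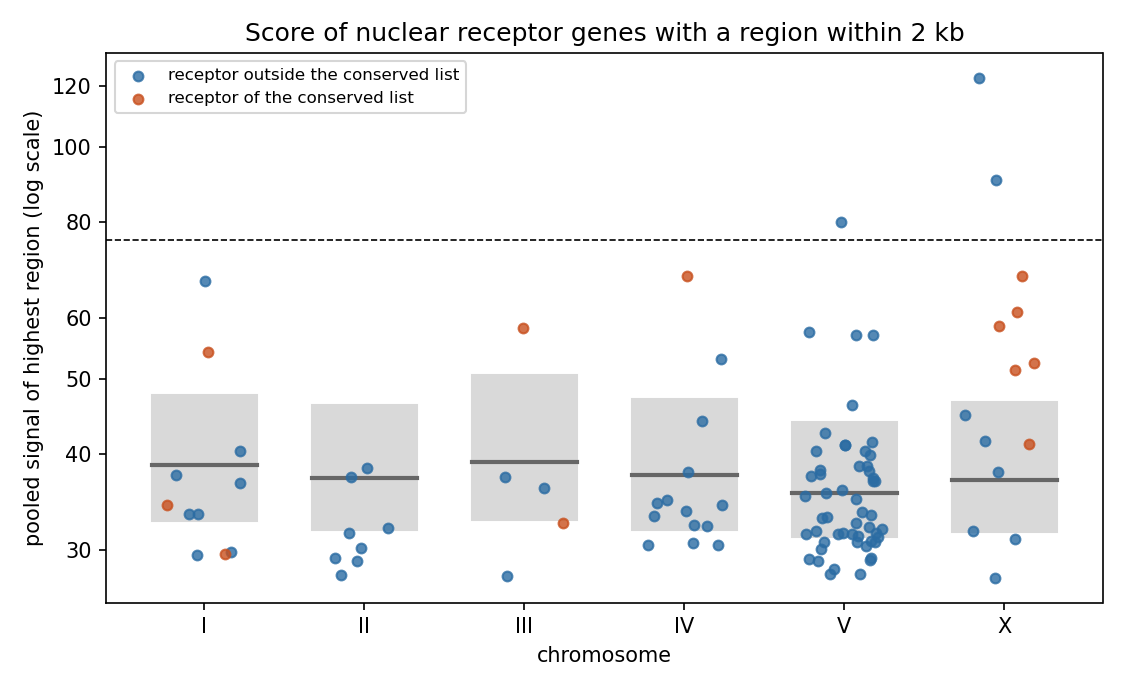
Pooled signal of the highest region within 2 kb (log scale) for each of the 105 receptor genes that had one, by chromosome, with receptors of the conserved list in orange. Grey boxes span the quartiles and grey lines the median of other protein-coding genes with a region, and the dashed line is the lowest signal of the thresholded list (75.8), passed by 3 receptor genes, 2 on X and 1 on V.

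Genes with relatives outside nematodes had a region more often than the rest of the family. The list of 15 conserved receptors held nhr-6, nhr-8, nhr-23, nhr-25, nhr-41, nhr-48, nhr-67, nhr-85, nhr-91, nhr-111, nhr-239, daf-12, sex-1, unc-55 and fax-1. A pooled region lay near 12 of the 15 (80%), against 93 of the other 259 receptor genes (35.9%) and 47.6% of other protein-coding genes. The counts were 12 in replicate 1 and 13 in replicate 2, against 50.6% and 47.5% of the other receptor genes. Their median pooled score was 53.3, against 33.4 for the other receptor genes and 37.4 for other genes. In each of the 3 lists, 8 of the 15 lay in the highest 25% of genes with a region. Of the other receptor genes, 3.09% did so in the pooled list, 5.79% in replicate 1 and 6.56% in replicate 2, and of other protein-coding genes 11.9%, 15.4% and 14.4%.

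Several properties moved with this contrast. Genes with more annotated starts offer more sequence to search. Among genes with 3 or more distinct starts a pooled region lay near 6 of 6 conserved receptors, 56.8% of 37 other receptors and 70.5% of other genes. With 1 or 2 starts the counts were 6 of 9, 32.4% of 222 and 45% of other genes, in the same order. The split did not equalise the sequence searched. With 3 or more starts the median window was 7930 bp for conserved receptors, 6070 bp for other receptors and 6290 bp for other genes. With 1 or 2 starts each median was about 4000 bp. Chromosome also differed: only 1 of the 15 conserved receptors lay on V, the chromosome with the lowest background, but 166 of the other 259 did. Off V a region lay near 40 of 93 other receptors (43%), beside 51.6% of other genes. All 12 conserved receptors with a region were also off V. Leaving out V thus raised the share of both receptor groups, and the gap between them remained. On X, all 6 conserved receptors had a region, beside 8 of 21 other receptors (38.1%) and 45.9% of other genes. The part of gene length, chromatin state or expression in these values was not tested.

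The moulting receptor nhr-23 ranked higher in the pooled list than the epidermal receptor nhr-25. nhr-23 on I, the relative of ROR receptors that is required for moulting, had 54.2 in the pooled list (41.4 in replicate 1, 25 in replicate 2). Its highest pooled summit lay in an intron, where replicate 2 had a signal of 14.5 and a rank of only 17473 among its regions, and another region 868 bp upstream of a start had 50.3. nhr-25 on X, the relative of FTZ-F1 and SF-1 that acts in the epidermis, had 41.2 in the pooled list (23.6 in replicate 1, 29.1 in replicate 2). At its pooled summit replicate 1 had a signal of 21.6, and replicate 2 had no summit within 100 bp. Both replicate values of nhr-25 thus came from other regions.

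A ligand-bound receptor and a neuronal one on X had close pooled signals. daf-12, the receptor for dafachronic acids that governs dauer entry and larval timing, had 52.4 in the pooled list (42.2 in replicate 1, 23.6 in replicate 2). Its summit was intronic, 1684 bp downstream of a start, and no summit of replicate 2 lay within 100 bp of it. fax-1, which acts in axon guidance and neuron identity, had 51.4 in the pooled list (29.4 in replicate 1, 20.4 in replicate 2), with the summit in a coding exon. In both genes replicate 1 gave the higher rank.

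nhr-48 went the other way. At the pooled summit, 651 bp upstream of a start, replicate 2 had a signal of 37.5 (rank 558 among its regions) and replicate 1 one of 23.4 (rank 5723). nhr-91 was level, with 36.5 in replicate 1 and 33.9 in replicate 2 (ranks of 962 and 769), and had 4 pooled regions. The nhr-6 summit lay 1997 bp from a start, just inside the limit. In replicate 2 the matching summit had a signal of 32.5 but fell outside the 2 kb window, which left the gene a score of 19.4.

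The remaining conserved receptors had low signal or had no region. unc-55 on I, a COUP-TF type receptor that sets the synaptic pattern of motor neurons, had a pooled signal of 34.3. nhr-239 on III had 32.5, and nhr-85 on I, a relative of Rev-erb and E75, had 29.6. Among genes nhr-85 ranked 8333 in the pooled list, 3893 in replicate 1 (signal 24.5) and 2465 in replicate 2 (24.6). Neither replicate had a summit within 100 bp of its pooled summit, so these values came from other regions. nhr-111 on V had no pooled region, and a signal of 17.1 in replicate 2 only. Neither nhr-8, which acts in sterol balance and xenobiotic defence, nor nhr-67, the relative of fly tailless, had a region in any list. Their nearest pooled summits were 30112 bp and 5245 bp away. odr-7, which specifies the AWA olfactory neuron and is not in the conserved list, also had none in any list.

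**Figure D2:**
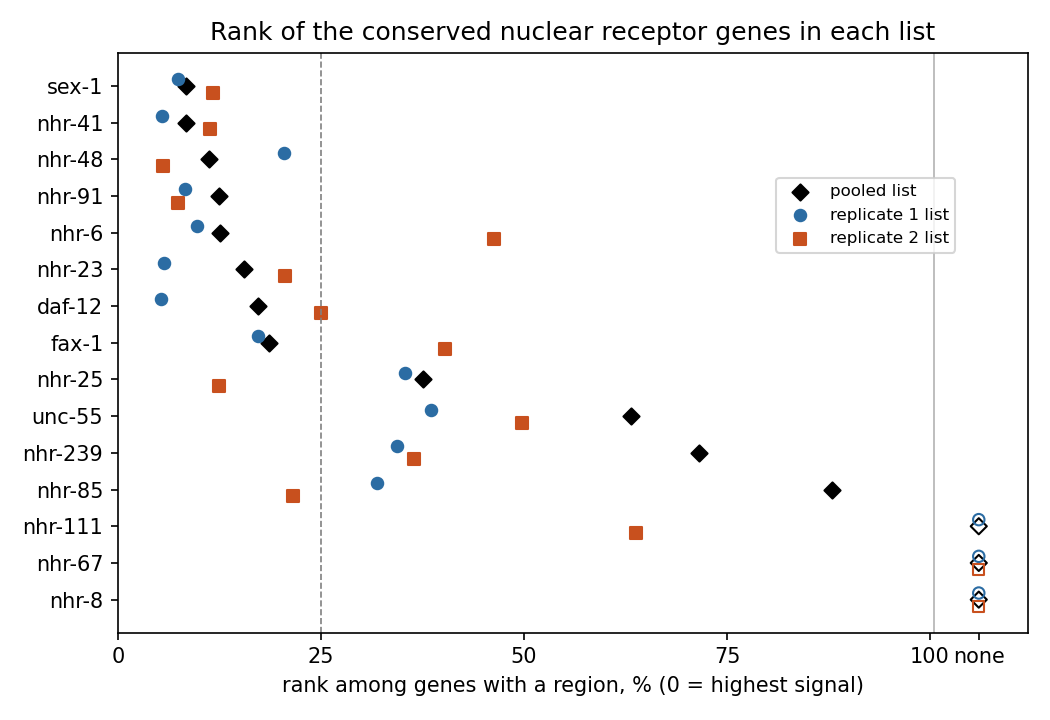
Rank of each of the 15 conserved receptor genes among all genes with a region, in percent (0 is the highest signal), in the pooled list (black diamonds), replicate 1 (blue circles) and replicate 2 (orange squares). Open symbols at the right mark genes with no region in that list, and the dashed line marks 25%: nhr-41, nhr-48, nhr-91 and sex-1 lay left of it in all 3 lists, as did nhr-23 and, at the limit in replicate 2, daf-12.

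Receptors grouped by known role form short lists of 5 to 11 genes, to be set beside 38.3% of the family and 47.6% of other genes. The lists were not matched for number of starts. Of 11 receptors of fat and metabolism, 8 had a pooled region (72.7%), with a median of 36.5. Among them nhr-49, nhr-62, nhr-64, nhr-66 and nhr-114 have 3 or more starts. With that many starts a region lay near 62.8% of all receptor genes and 70.5% of other genes. After nhr-64 the highest was nhr-49, a regulator of fat use in fasting (40.3), but its summit lay nearest to a start of inx-20. nhr-80, which acts with it on fatty acid desaturation, had 37.3, and nhr-114 had 36.9. No pooled region lay near nhr-13, nhr-68 or nhr-69. Of 5 receptors of xenobiotic, pathogen and iron responses, nhr-86 had one (20%, signal 33), and nhr-8, nhr-14, nhr-28 and nhr-176 had none. Of 5 receptors of neurons, nhr-6, fax-1 and unc-55 had one (60%). Of 6 receptors of the embryo and epidermis, 4 had one (66.7%). nhr-2, expressed in the early embryo, had 29.8, with a region of replicate 2 and none of replicate 1.

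Genes of ligand, coregulator and sterol pathways outside the family were examined as a list of 16 genes, of which 15 were found under that symbol. A pooled region lay near 11 of the 15 (73.3%, against 47.6% of all genes that are not receptors), with a median of 47.4. The list was not matched for chromosome or number of starts. Several of its genes, such as cbp-1, mdt-15 and daf-2, lie on III and have 3 or more starts. Of genes that are not receptors, 60.5% on III and 70.5% with 3 or more starts had a region. The highest was cbp-1 on III, the CBP/p300 acetyltransferase that nuclear receptors recruit, with 171 in the pooled list (100 in replicate 1, 70.3 in replicate 2). din-1, the corepressor of DAF-12, had 68.2 in the pooled list (34.6 in replicate 1, 42.1 in replicate 2). Both had a q-value below 0.05. Mediator subunits followed with 57.2 for dpy-22, 49.9 for mdt-15 and 46.7 for let-19, and the mdt-15 summit lay nearest to R12B2.13. The insulin receptor gene daf-2 had 57.8.

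Genes of ligand synthesis and sterol handling had pooled signals from 27.6 to 47.4. daf-9, the cytochrome P450 that makes dafachronic acids, had 38.6, and emb-8, which encodes a cytochrome P450 reductase, had 47.4. The sterol methyltransferase gene strm-1 had 27.6, with cic-1 nearer to the summit, and the Niemann-Pick homologues ncr-1 and ncr-2 had 31.9 and 31.2. No pooled region lay near daf-36, hsd-1 or dhs-16. Nor did one lie near daf-7, a gene of the same list outside ligand synthesis and sterol handling.

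The family was spread unevenly over chromosomes that differed in background. V held 167 of the 274 receptor genes (60.9%) but 24.5% of other protein-coding genes, and it was the chromosome with the lowest background. A pooled region lay near 53 of the 167 (31.7%, interval 24.8% to 39.4%), against 35.3% of other genes on V. Shares on the other chromosomes were 11 of 24 on I (45.8%, against 57.4%), 8 of 15 on II (53.3%, against 50.4%), 5 of 8 on III (62.5%, against 60.5%), 14 of 33 on IV (42.4%, against 45.1%) and 14 of 27 on X (51.9%, against 45.9%). On every chromosome the background lay inside the interval of the receptor genes. Other genes weighted to the chromosomes of the receptors had a region in 41% of cases, beside 38.3% of receptor genes and 47.6% of other genes without weights. Weighted to both chromosome and number of starts, the value was 43.6%.

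**Figure D3:**
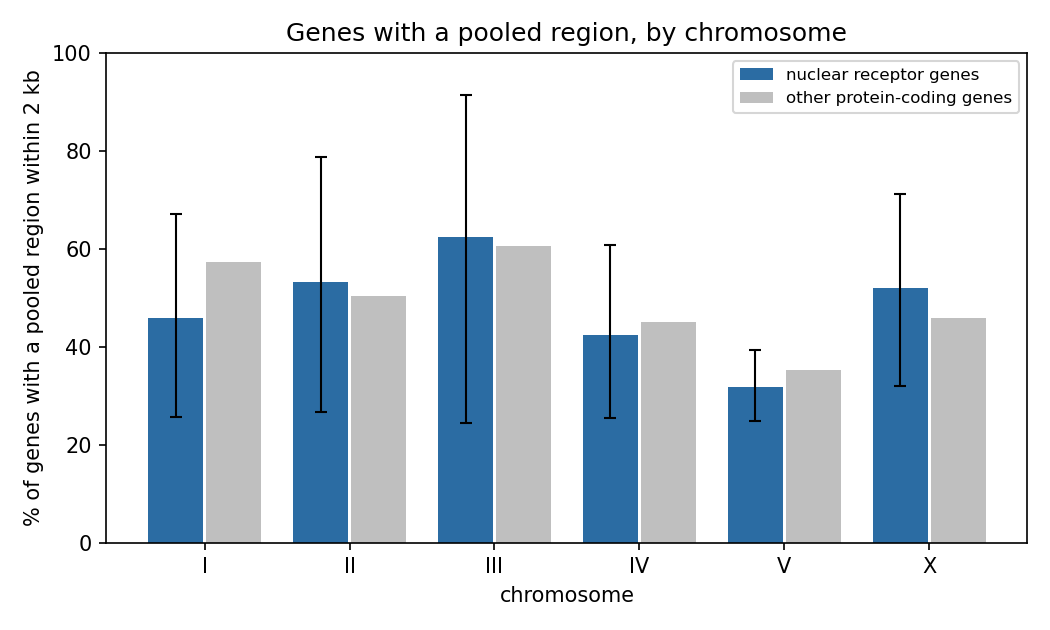
Share of genes with a pooled region within 2 kb, by chromosome, for receptor genes (blue, with exact 95% intervals) and other protein-coding genes (grey). Both groups were lowest on V, at 31.7% and 35.3%, and the grey value lies within the interval on each chromosome.

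Replicates did not keep this order by chromosome. On V, a region lay near 53.9% of receptor genes in replicate 1 (other genes 51%) and near 44.3% in replicate 2 (other genes 46.3%). On IV the shares were 42.4% in replicate 1 (other genes 57.8%) and 66.7% in replicate 2 (other genes 55.2%). On I they were 41.7% and 45.8%, with other genes at 69.7% and 66%. On II they were 46.7% and 66.7%, with other genes at 64% and 59.2%, and on III 75% and 37.5%, with other genes at 72.2% and 67.1%. On X, 59.3% had a region in each replicate, with other genes at 60.7% and 58.5%. The receptor genes on I were below the background in all 3 lists, and on the other chromosomes the order differed between lists.

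Signal, in contrast to share, was highest on X. The 14 receptor genes with a region there had a median pooled signal of 48.1, against 37 for other genes on X, and 5 other chromosomes had medians between 30.8 and 36.1. The ratio to other genes on X was 1.30 in the pooled list, 1.24 in replicate 1 and 1.23 in replicate 2. The 6 conserved receptors on X had a median of 55.5 and the other 8 with a region one of 39.7. On V the ratio was 0.939, 0.999 and 0.919.

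Many receptor genes lie near each other. In all, 155 receptor genes, 121 of them on V, had a start within 10 kb of a start of another. A pooled region lay near 31.6% of them (median 32.3) and near 47.1% of those that stood alone (median 36.9). The gap in shares was not on V, where they were 33.1% for clustered and 28.3% for lone genes, with medians of 32.7 and 36.9. Off V the shares were 9 of 34 (26.5%) and 43 of 73 (58.9%), beside 51.6% of other genes. All 15 conserved receptors stood alone, and the 12 of them with a region were off V. The high share of lone genes off V therefore overlaps the contrast of conserved receptors above. Of the 105 genes with a pooled region, 16 shared their highest region with another receptor gene, in 8 pairs such as nhr-211 with nhr-212 (41), nhr-93 with nhr-221 (40.3) and nhr-110 with nhr-237 (38.5). The 105 genes therefore stood for 97 regions. Counting any other protein-coding gene, 33.3% of the 105 shared their highest region, against 48% of other genes with a region. Of receptor genes in the outer parts of V, cut into 3 equal lengths, 34.1% had a region (other genes there 36.8%), and of those in the middle part 24.4% (other genes 32.7%).

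Agreement between replicates was moderate. Across the 80 genes with a region in both lists, log2 scores gave a Spearman's rho of 0.49 and a Pearson's r of 0.62, beside 0.42 and 0.65 for 8443 other genes. These points share 2 libraries and some share a region, so the values are descriptions. A region was present in replicate 1 alone for 63 of 274 receptor genes, beside 3623 of 19699 other genes. In replicate 2 alone the counts were 56 and 2850, and in both replicates 80 and 8443. Presence in both lists was thus less common among receptor genes, and presence in 1 list alone more common. Of the 97 distinct pooled regions, 69 had a summit of replicate 1 within 100 bp and 51 one of replicate 2, and 31 had both. The same count over all pooled regions is not given here, so these values have no background. Conserved receptors made up 12 of the 80 points, with replicate 1 values from 22.8 to 42.2 and replicate 2 values from 18.9 to 37.5.

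**Figure D4:**
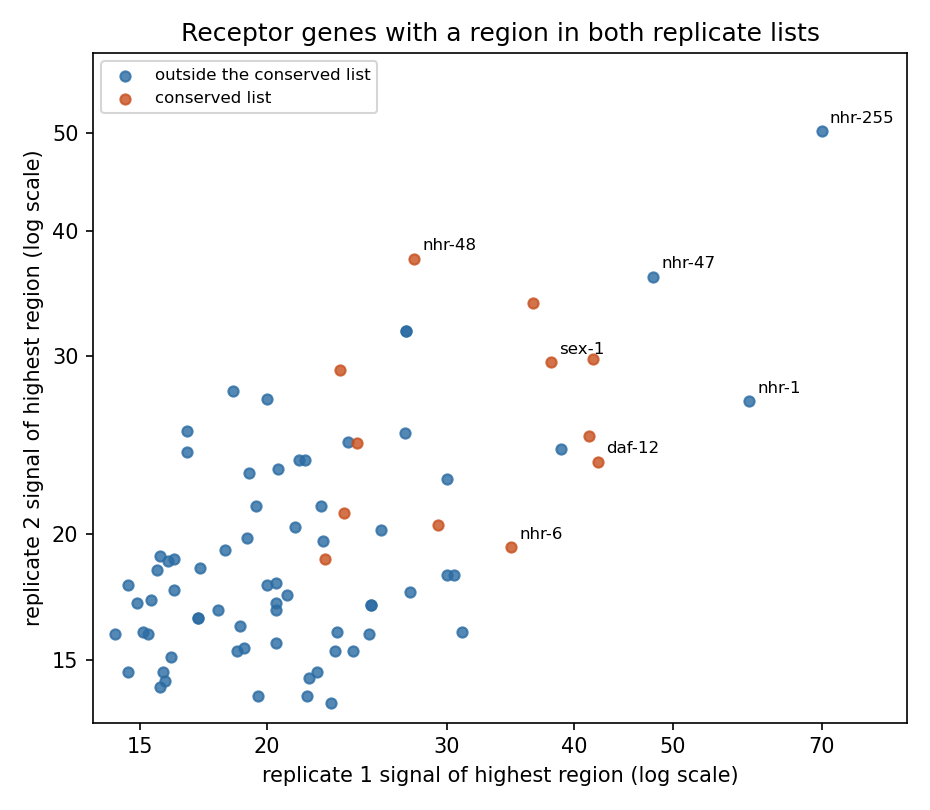
Highest signal within 2 kb in replicate 1 (x) and replicate 2 (y), both on log scales, for the 80 receptor genes with a region in both lists, with conserved receptors in orange. nhr-255 was highest in both (70 and 50.2), nhr-1 lay to the right at 59.4 with 27.1 in replicate 2, and nhr-48 lay above the main body with 27.9 and 37.5.

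The position of the summits relative to the starts is described next. The summit was upstream of the nearest own start in 51 of 105 genes (48.6%), against 58.2% of other genes with a region. It lay in an intron in 31.4% (other genes 25.6%), in a coding exon in 25.7% (22.3%) and between genes in 29.5% (39.3%). The 500 bp before a start held 16.2% of the summits, against 22.5% in other genes. The median distance was 863 bp, against 805 bp. The receptor gene was the gene nearest to its own highest region in 80% of cases, against 70.1%. Small RNA genes lay within 200 bp of 2 summits, those of nhr-255 and nhr-41 (1.90%, against 3.62%). No test was made of these differences, since genes are not replicates.

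**Figure D5:**
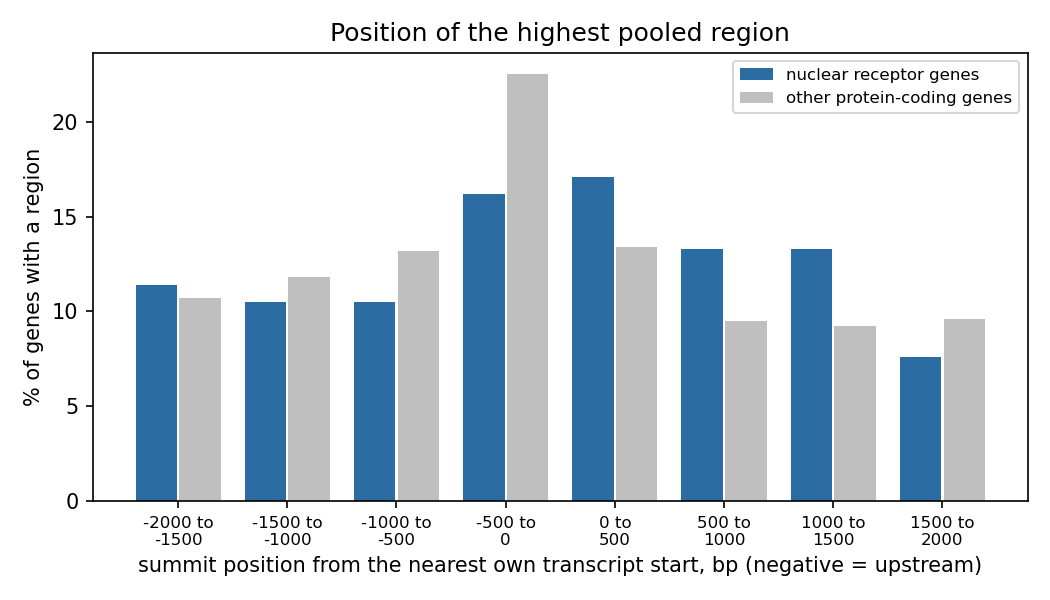
Position of the highest pooled summit relative to the nearest own transcript start, in bins of 500 bp, as a share of the 105 receptor genes (blue) and of 9373 other genes with a region (grey). The bin just upstream of the start held 16.2% of receptor genes and 22.5% of other genes, and the 3 bins that follow the start were higher for receptor genes.

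Sequence words were counted from 100 bp before to 100 bp after each summit on either strand, for 4 words of 6 letters, none of which contains another. Each of the 97 distinct regions was counted once. The T-box core GGTGTG was in 11 of the 97 windows (11.3%), against 6.89% of all pooled regions and 9.6% of the 521 highest. The conserved receptors nhr-48, nhr-23 and fax-1 had it, and so did nhr-40 on X. GAGAGA was in 23 (23.7%, against 16.3% of all and 32.2% of the 521 highest), including the windows of nhr-1, nhr-47, sex-1 and nhr-48. GGGCGG was in 4 (4.12%, against 6.82% and 14.6%) and GATAAG in 6 (6.19%, against 6.87% and 6.14%). The GC content had a median of 39.3% both in the 105 receptor genes and in other genes with a region. These counts are small, and a word is not evidence of a bound site.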

How the data were processed

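Per the file headers and the labels, the authors called regions on each replicate with a control, and on the pooled alignments of both, then thresholded them by the irreproducible discovery rate. Neither aligner nor peak caller is named in these sources. Signal, as deposited for each region, is the authors' value and is not scaled between lists. Regions with q below 0.05 were counted from the deposited −log10 q-value. No read numbers were used, so depth is unknown.

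Coordinates are on ce11, the assembly of the Ensembl release 115 annotation and of the RefSeq sequence used. Region edges and summits were checked to lie within the chromosomes, and the scoring was tested on planted regions. Genes were scored by any transcript start within 2 kb. Small RNA genes are tRNA, snRNA, snoRNA and rRNA genes. Shares carry exact Clopper-Pearson 95% intervals, which cover counting error only. No significance test was made: there is 1 group, and genes are not replicates. The planned description of zinc fingers in the proteins was not made.

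Named genes are the 12 highest scores, those in the thresholded list, the highest of each chromosome and of each role list, the conserved list, odr-7, and the 3 genes on either side of the thresholded limit. Other role-list, paired and word-bearing genes were named after their values were seen. The members and lists were chosen with earlier results of these data known. Alternatives changed the list, the window, the starts, the assignment and the members. Python 3.11.15, pandas 2.3.3, numpy 2.4.6 and SciPy 1.17.1 were used.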

Additional observations from a re-analysis of the deposited data

How the results depend on the processing

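The share of receptor genes with a region was below that of other genes under all 11 alternatives that kept the whole family, with a ratio of shares from 0.448 to 0.880 (0.805 as reported). None of the 11 matched the genes for chromosome. Weighted to the chromosomes of the receptors, other genes had a pooled region in 41% of cases, beside 38.3% of receptor genes and 47.6% without weights. Leaving out members that share a region gave 0.725, which is lower by construction because only genes with a region were removed. The conserved list alone gave 1.68, with 12 genes (80%), a median of 53.3, 0% on V, 100% on X and 0 in the thresholded list. Without replicate 1 or without replicate 2 the count was 136 to 143, the share 49.6% to 52.2%, the median 17.1 to 20.5 on those lists' own scales, the share on V 44.3% to 53.9% and on X 59.3% in both. Within 1 kb there were 68 genes (24.8%, 18.6% on V). Within 5 kb there were 165 (60.2%, 53.3% on V, 81.5% on X), with 8 in the thresholded list. From 1000 bp upstream to 200 bp downstream there were 51 (18.6%, 12% on V). With each region given to its nearest gene the share was 32.5% (24% on V). At q below 0.05 there were 6 genes (2.19%, 0.599% on V, 11.1% on X) with a median of 74.0. Without regions beside small RNA genes the thresholded count was 2, because nhr-255 was lost. Starts of protein-coding transcripts only, an alternative chosen after seeing the data, gave 104 genes.

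Ranks of single genes were less stable. Of 21 named genes, 12 kept their rank within 1.5 times without replicate 2, and 6 did without replicate 1. With unknown depth, a gene with no region cannot be told from one too weakly covered to be listed.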
